A study of Mus musculus with 27 samples.

Results

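Chromatin accessibility was mapped by ATAC-seq in control and Runx1KO mK4 cells, and the regions described here closed in Runx1KO cells in groups, without a Runx ChIP-seq peak on any of them. A region belonged to the set if it was on the list of Runx1-dependent regions, which are open in control cells and lose accessibility at least 2-fold in Runx1KO cells, if it overlapped none of the 3 lists of Runx peaks by 1 bp, and if another region of the same list lay within 12.5 kb, edge to edge. There were 2264 such clustered closing regions among 8741 closing regions and 55649 ATAC-seq regions in all. The lists hold called peaks only, so Runx binding too weak to be called was not measured at these regions. For many Runx1 peaks the paper describes Runx2 signal as likely a little under the calling limit. The other closing regions were 4183 isolated regions without a Runx peak and 2294 Runx-bound regions, of which 1028 overlapped a Runx1 peak and 1266 only a Runx2 peak. A further 9427 regions opened in Runx1KO cells, and 37481 regions on the list of Runx1-independent regions are called stable here.

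The mK4 line derives from mouse metanephric mesenchyme, the tissue that holds the nephron progenitors of the embryonic kidney, and the unedited line (genotype WT) served as control. Runx1KO cells carry a CRISPR-Cas9 deletion of Runx1 exon 3, and ZebDKO cells (mK4 Zeb1 and Zeb2 DKO) deletions of the exons with the start codons of Zeb1 and Zeb2. All lines were grown in medium with 10% serum to near confluence, with 3 libraries for each line and assay. RNA-seq covered all 3 lines, ATAC-seq covered control and Runx1KO cells, and the peak lists used here came from Runx1 ChIP-seq in control cells and Runx2 ChIP-seq in control and Runx1KO cells. The sources used here do not state how many clones stand behind each knockout, so clone and genotype cannot be told apart, and p-values measure the spread between 3 cultures of a line. The label of the cell line was checked against mesenchyme markers. Osr1, Eya1, Sall1, Hoxa11 and Gdnf ranged from 11.4 to 217.4 TPM (a transcript level scaled for gene length and library) in the control libraries, while the progenitor markers Six2, Wt1, Cited1 and Hoxd11 were at or below 0.4 TPM. The level of Runx1 mRNA does not check the knockout, because TPM over the whole gene does not isolate the deleted exon: it was 18.7, 15.6 and 17.9 TPM in control and 30.3, 30.1 and 28.5 TPM in Runx1KO cells.

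ATAC-seq marks DNA that is free enough of nucleosomes for a transposase to cut, which is typical of promoters and of distal enhancers. Enhancers of a gene often lie in groups along the chromosome, and open chromatin is kept open by several DNA-binding factors together. Runx factors bind their motif through the Runt domain with the partner Cbfb, and AP-1 factors, dimers of Fos and Jun proteins, are common at enhancers of mesenchymal cells.

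The sequences below are examples picked for their motif letters and are not a typical sample of the regions. In each cluster or gene, the region with an AP-1 match nearest its middle was taken, or else one with a Runx match. Of all clustered regions 34.1% held AP-1 letters and 51.5% AP-1 or Runx letters in their central 300 bp. Each is a window of 200 bp on the middle of 1 clustered region, from mm9 on the plus strand, with AP-1 letters (TGACTCA or its reverse complement TGAGTCA) and Runx letters (TGTGGT or its reverse complement ACCACA) in capitals. The first 4 belong to clusters assigned to the lower genes with many clustered regions, the fifth to the longest cluster, the sixth holds paired AP-1 letters, and the last comes from the only one of the 10 largest clusters with no AP-1 letters in the central 300 bp of its regions. The windows are Bmper chr9:23494004-23494203, between genes; Osr1 chr12:9119185-9119384, between genes; Sulf2 chr2:165977061-165977260, in an intron; Igfbp2 chr1:72886284-72886483, in an intron; Tnc chr4:63759419-63759618, between genes; Pard3b chr1:62598190-62598389, in an intron; and Rhou chr8:126145930-126146129, in an intron of Gm20388.
Bmper: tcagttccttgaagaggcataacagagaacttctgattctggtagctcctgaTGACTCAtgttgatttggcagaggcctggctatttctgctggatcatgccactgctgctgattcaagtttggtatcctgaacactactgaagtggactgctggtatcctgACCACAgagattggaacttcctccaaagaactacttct
Osr1: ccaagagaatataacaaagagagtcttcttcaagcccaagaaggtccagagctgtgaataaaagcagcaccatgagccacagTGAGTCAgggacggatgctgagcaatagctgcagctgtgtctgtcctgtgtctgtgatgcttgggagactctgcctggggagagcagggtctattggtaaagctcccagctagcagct
Sulf2: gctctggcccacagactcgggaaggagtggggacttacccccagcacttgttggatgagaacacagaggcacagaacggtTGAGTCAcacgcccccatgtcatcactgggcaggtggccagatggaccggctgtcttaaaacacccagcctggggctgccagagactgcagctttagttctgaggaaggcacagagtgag
Igfbp2: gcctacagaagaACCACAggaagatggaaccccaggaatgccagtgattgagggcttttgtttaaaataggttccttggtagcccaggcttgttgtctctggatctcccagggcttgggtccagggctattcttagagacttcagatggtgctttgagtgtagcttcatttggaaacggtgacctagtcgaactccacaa
Tnc: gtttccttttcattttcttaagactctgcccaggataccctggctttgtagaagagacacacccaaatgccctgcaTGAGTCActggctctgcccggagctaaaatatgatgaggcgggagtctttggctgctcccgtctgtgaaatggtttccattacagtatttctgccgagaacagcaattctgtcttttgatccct
Pard3b: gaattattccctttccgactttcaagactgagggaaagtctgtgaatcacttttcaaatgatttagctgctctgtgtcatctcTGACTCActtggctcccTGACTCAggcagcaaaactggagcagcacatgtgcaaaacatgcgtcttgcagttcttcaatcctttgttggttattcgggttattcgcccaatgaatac
Rhou: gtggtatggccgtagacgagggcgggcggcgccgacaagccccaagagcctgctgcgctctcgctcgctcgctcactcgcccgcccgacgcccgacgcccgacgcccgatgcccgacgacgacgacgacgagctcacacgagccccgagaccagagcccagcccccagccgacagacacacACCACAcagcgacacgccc
The Bmper window holds AP-1 and Runx letters, the Igfbp2 and Rhou windows hold Runx letters alone, and the other 4 hold AP-1 letters alone. No called Runx peak lies on any of these regions. The nearest was 14.6 kb from the Bmper region, 9.14 kb from the Sulf2 region and 38.8 kb from the Osr1 region. The windows are far from the starts of the genes whose name they carry in several cases: the nearest transcription start to the Bmper window was that of Npsr1 at 408.3 kb, to the Osr1 window that of Ttc32 at 82.5 kb, and to the Pard3b window that of Nrp2 at 151.6 kb.

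The 2264 regions fell into 1234 clusters, where a cluster is a chain of closing regions with gaps of up to 12.5 kb. Most clusters were small. There were 669 clusters with 2 of these regions, 116 with 3, 29 with 4 and 9 with 5 or more, and 411 clusters held 1 such region beside Runx-bound closing regions. A cluster spanned a median of 7.74 kb and at most 52.0 kb. The gap to the next closing region had a median of 4.56 kb (quartiles 1.83 and 7.74 kb), with 605 regions within 2 kb of it and 263 regions more than 10 kb from it. At the edge of the rule, the regions just inside the window were 12.422, 12.442 and 12.443 kb from the next closing region, and the isolated regions just outside it 12.522, 12.548 and 12.555 kb.

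Many clusters had no Runx peak on any closing region. This held for 671 of the 1234 clusters (54.4%), with 1480 of the 2264 regions, while 563 clusters with 784 regions also held a Runx-bound closing region, and 284 of these a Runx1-bound one. For 454 regions the only neighbour within the window was Runx-bound. Regions of other behaviour seldom lay inside a cluster: 1030 clusters held neither a stable nor an opening region between their ends, 194 held a stable region and 24 an opening region. Of all ATAC-seq regions inside clusters 91.4% closed, against 15.7% of all ATAC-seq regions, which follows in large part from how clusters were built.

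The 10 clusters with the most of these regions had 4 to 7 each. The longest, with 7 clustered regions and 1 bound closing region, lay at chr4:63707757-63759741, 26.0 kb from the start of Tnc, which encodes the matrix glycoprotein tenascin C. Another 7 regions at chr8:126118414-126158701 lay 19.1 kb from the start of Rhou, an atypical small GTPase. The remaining 8 were at chr4:55720715-55746489 (nearest start Klf4, 175.4 kb), chr9:88154285-88190985 (Nt5e, 31.5 kb), chr5:140381081-140406380 (start of Elfn1 inside), chr4:34938296-34960676 (in introns of Mob3b, nearest start Cga, 97.3 kb), chr16:35596729-35633647 (intron of Sema5b), chr14:26544457-26580012 (intron of Zcchc24), chr3:136094832-136123289 (Bank1, 105.8 kb) and chr14:32815703-32842404 (start of Galntl2 inside, listed as Galnt15 in the expression table). In 9 of these 10 clusters 1 to 4 regions held AP-1 letters in their central 300 bp. The exception was the Rhou cluster, where 0 of 7 did and the regions were GC-rich, with a median GC content of 66.7% (range 41% to 72%) against a median of 49.7% over all clustered regions.

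Some clusters joined into longer stretches in which every ATAC-seq region closed. ATAC-seq regions were taken in their order along the chromosome. Of the clustered regions 730 (32.2%) had a closing region as both neighbours, 1325 (58.5%) as 1 of the neighbours and 209 (9.23%) as neither. The rule asks for a closing region within 12.5 kb, so these shares follow in large part from it and are a description. There were 144 runs of at least 5 consecutive closing regions with a clustered region in them, and these held 519 of the 2264 regions. The longest was a run of 26 closing regions at chr6:116669917-117603444, of which 11 were clustered regions and 6 Runx-bound. It spans 933.5 kb around Cxcl12, a chemokine gene listed at 0 TPM in all 9 libraries. The next, 21 regions at chr9:22639373-23499416 with 13 clustered and 2 Runx-bound, spans 860.0 kb around Bmper, an extracellular regulator of BMP signalling. A run of 19 regions at chr12:9294019-10336667 surrounds Osr1, a zinc finger factor of early kidney mesenchyme. Of the other 5 runs of 14 or more closing regions, 4 hold the start of Ntrk3, Pard3b, Epha7, or Plcb1 and Plcb4, and 1, at chr4:55555580-56432773 beside Klf4, holds no start of an annotated protein-coding gene. Each of these 8 spans held at least 1 and at most 8 Runx2 peaks called in Runx1KO cells. Runx1 peaks of control cells numbered 5 in the Cxcl12 span, 2 in the Bmper span and 6 in the Osr1 span. There were 5 in the Pard3b span, 12 in the Epha7 span and 4 in the span of Plcb1 and Plcb4. The Ntrk3 span and the span beside Klf4 held 0.

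**Figure D1:**
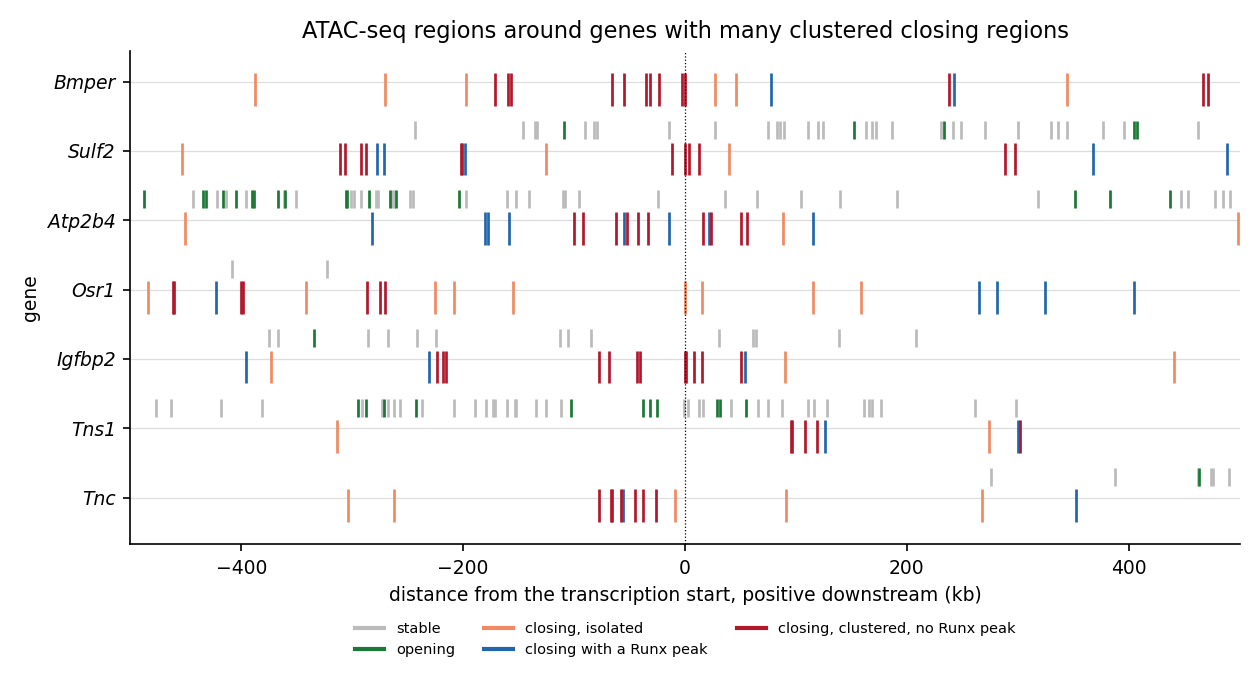
Positions of ATAC-seq regions within 500 kb of the starts of 7 of the 8 genes called lower in Runx1KO cells with the most clustered regions (x axis, kb from the transcription start in the direction of transcription, 1 row a gene). Ticks on the line are closing regions (clustered without a Runx peak, isolated without a Runx peak, or with a Runx peak), and the smaller ticks above it stable and opening regions. Around Bmper all 21 regions closed, 13 of them clustered, whereas around Atp2b4 the 10 clustered regions lay among 34 stable and 18 opening regions.

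The surroundings of the lower genes differed in how much else was open, as the map of 7 gene starts shows. Within 500 kb of the Bmper start there were 13 clustered, 6 isolated and 2 Runx-bound closing regions and no stable or opening region. The Osr1 start had 7 clustered, 9 isolated and 5 Runx-bound closing regions and 2 stable ones, and the Tnc start 7 clustered regions beside 6 stable and 1 opening. The Sulf2 start had 12 clustered regions beside 31 stable and 5 opening ones. Closing in these loci thus ranged from every open region to a minority.

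Sequence motifs were counted in the central 300 bp of each region, on both strands, to ask which letters the clustered regions share with other closing regions. AP-1 letters (TGACTCA) were in 34.1% of the clustered regions, in 34.6% of the isolated regions and in 26.9% of the Runx-bound closing regions. The share was 26.1% of all ATAC-seq regions. The clustered share differed from the Runx-bound share by 7.16 percentage points (95% interval 4.45 to 9.87) and from the isolated share by −0.47 (−2.95 to 2.01). Runx letters (TGTGGT) were in 27.3% of the clustered regions, in 28.8% of the isolated regions, in 56.0% of the Runx-bound closing regions and in 22.5% of all ATAC-seq regions. The difference was −28.7 percentage points (−31.5 to −26.0) from the bound regions and −1.51 (−3.80 to 0.78) from the isolated ones. The bound regions were chosen by Runx peaks, so their Runx share is a description. Either set of letters was in 51.5% of the clustered regions, and both were in 9.85%. Tead letters (GGAATG), in 18.6% of all ATAC-seq regions, were in 20.9% of clustered and 25.5% of Runx-bound regions, a difference of −4.57 (−7.0 to −2.13).

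**Figure D2:**
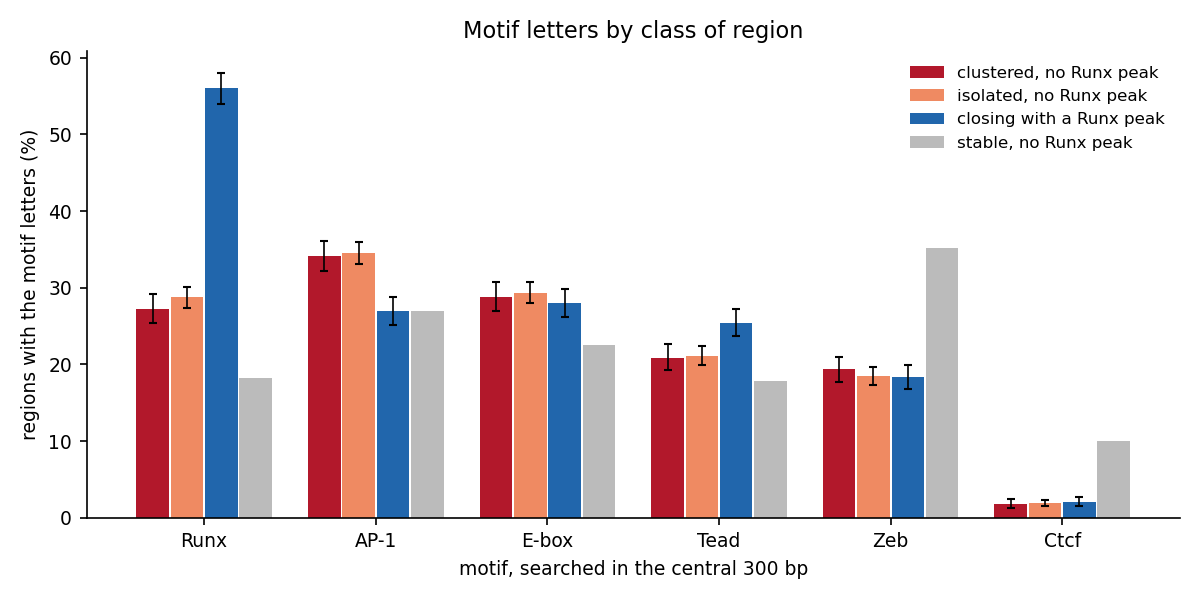
Share of regions (y axis, percent) with each motif in the central 300 bp, for clustered closing regions, isolated closing regions without a Runx peak, Runx-bound closing regions (each with Wilson 95% intervals) and stable regions without a Runx peak (grey, without intervals). Clustered and isolated regions had nearly the same bars (AP-1 34.1% and 34.6%), and Runx-bound regions stood apart in the Runx share (56.0%).

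Of the 13 motifs compared, few separated the clustered from the isolated regions. Zeb letters (CAGGTA or CAGGTG) were in 19.3% and 18.5%, and E-box letters (CAGCTG) in 28.8% and 29.4%, beside 36.0% and 22.8% of all ATAC-seq regions. Over whole regions, where Runx-bound regions are wider, the clustered share was below the Runx-bound share for both (−6.20 and −4.24 percentage points), while in the central 300 bp it was above by 0.99 (−1.27 to 3.26) and 0.86 (−1.74 to 3.46). Grhl letters (AACCNGTT) were in 2.52% of clustered and 1.72% of isolated regions, a difference of 0.80 percentage points (0.036 to 1.56) whose interval held 0 with whole regions or with windows of 5 or 25 kb. The remaining motifs were rarer: Fox letters (TGTTTAC) were in 5.92% of the clustered and 4.17% of all ATAC-seq regions, homeobox letters (TAATTA) in 4.81% and 3.46%, Ets letters (CCGGAAG) in 1.33% and 4.80%, Tcf/Lef letters (CTTTGATC) in 0.972% and 0.746%, and Cre letters (TGACGTCA) in 0.442% and 0.848%. The Nfi pattern was in 0 of 2264 clustered regions, with a Wilson 95% upper bound of 0.169%, and in 0.120% of the isolated ones. More than 1 AP-1 match was found in 3.14% of clustered and 4.61% of isolated regions, a difference of −1.48 (−2.43 to −0.53), and more than 1 Runx match in 3.80% and 4.90%, a difference of −1.10 (−2.12 to −0.085). Clusters with and without a Runx-bound closing region also had similar letters: AP-1 in 33.4% and 34.5% of their clustered regions and Runx in 26.1% and 27.8%, with differences of −1.04 (−5.17 to 3.08) and −1.69 (−5.52 to 2.14). Counted by cluster, 502 of the 823 clusters with 2 or more of these regions (61.0%) held AP-1 letters in at least 1 closing region.

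**Figure D3:**
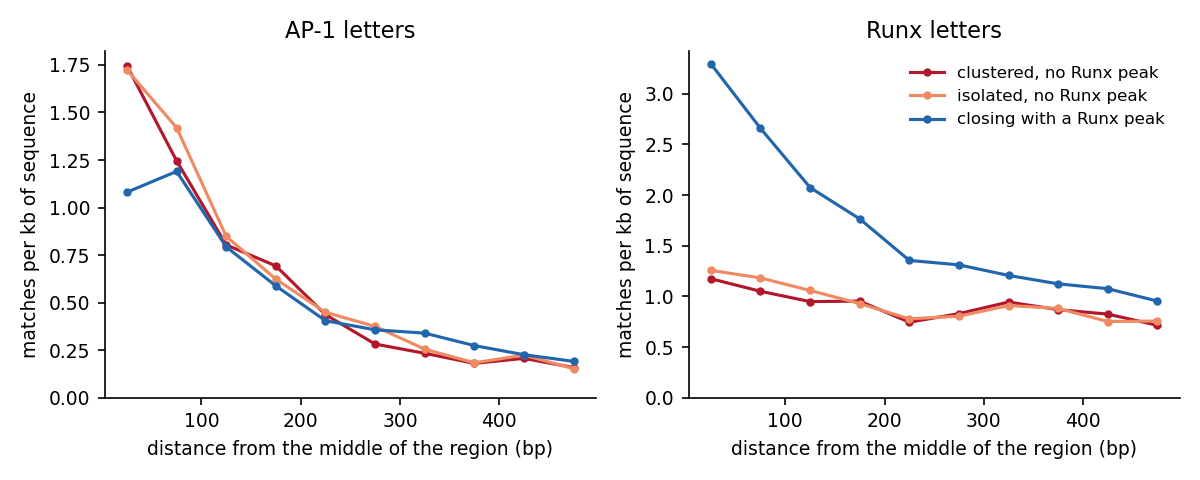
Matches per kb (y axis) by distance from the region middle (x axis, bp, bins of 50 bp) for AP-1 letters and Runx letters, in clustered, isolated and Runx-bound closing regions. In clustered regions AP-1 matches fell from 1.74 per kb at the middle to 0.159 per kb at 450 to 500 bp, and Runx matches from 1.17 to 0.716 per kb.

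The AP-1 letters lay at the middle of the clustered regions, as the plot of matches by distance shows. There were 1.74 AP-1 matches per kb in the first 50 bp from the middle, 0.437 per kb at 200 to 250 bp and 0.159 per kb at 450 to 500 bp. Isolated regions had 1.72 per kb in the first bin and Runx-bound regions 1.08 per kb. Runx letters in clustered regions were flatter, with 1.17 per kb in the first bin, 0.746 at 200 to 250 bp and 0.716 at 450 to 500 bp. In Runx-bound regions they peaked at 3.30 per kb.

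Set beside the 26922 stable regions without a Runx peak, the clustered regions had more AP-1, Runx, E-box, Tead, Fox and homeobox letters and fewer Zeb, Ctcf and Ets letters. AP-1 letters were in 34.1% against 27.0% (difference 7.11 percentage points, 5.02 to 9.20). With regions more than 2.5 kb from the start of any protein-coding gene the difference was 4.09 (1.94 to 6.25). For Runx letters it was 9.06 (7.17 to 10.9), and for E-box letters 6.24 (4.31 to 8.18). Smaller differences were found for Tead letters (3.07, 1.35 to 4.78), Fox letters (1.81, 0.78 to 2.85), homeobox letters (1.24, 0.31 to 2.17) and Ets letters (−2.84, −3.36 to −2.31). The intervals of Cre, Tcf/Lef and Grhl letters held 0. The rare Nfi pattern was in 0 of 2264 clustered and 10 of 26922 stable regions, too few for a comparison. Zeb letters, which the Zeb1 and Zeb2 repressors bind, were in 19.3% of clustered and 35.1% of stable regions, a difference of −15.8 (−17.5 to −14.1). Opening regions had them in 62.7%. The pattern of Ctcf, the insulator protein, can contain the Zeb letters. It was in 1.77% of clustered and 10.0% of stable regions, and with the regions that hold it counted as without Zeb letters the difference in Zeb letters was −12.2 (−13.9 to −10.5). Median GC content was 49.7% in clustered and 51.7% in stable regions. More than 2.5 kb from the start of any protein-coding gene the difference was −1.20 (−1.71 to −0.70) for Ets and 0.99 (0.0068 to 1.97) for homeobox letters. Other closing regions had shares near the clustered ones for several of these letters. In isolated and Runx-bound regions Zeb letters were in 18.5% and 18.4%, and E-box letters in 29.4% and 27.9%. Ctcf letters were in 1.91% and 2.09% of them, and Ets letters in 1.48% and 1.70%.

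By position most clustered regions were distal to the starts of protein-coding genes. Introns held 46.8% of them, intergenic DNA 46.2%, exons 3.71% and promoters (within 1 kb of such a start) 3.36%. The promoter share was 4.81% in isolated regions, a difference of −1.45 percentage points (−2.50 to −0.40) that was no longer clear of 0 with a window of 5 kb. The nearest transcription start was a median of 43.4 kb away, against 36.8 kb for isolated regions. Clustered and isolated regions had the same median width, 577 bp, and Runx-bound closing regions were wider, at 714 bp. A stable region lay within 12.5 kb of 46.4% of the clustered and 47.3% of the isolated regions (difference −0.91, −4.04 to 2.22), and an opening region within 12.5 kb of 9.19% and 12.4% (difference −3.22, −5.07 to −1.37). The latter interval held 0 when opening regions were counted within 5 kb (−0.93, −2.12 to 0.26) or 25 kb (−2.43, −5.02 to 0.17). Within the set, clusters with a Runx-bound closing region had a stable neighbour more often (53.4% of their clustered regions) than clusters without (42.6%), a difference of 10.8 (5.30 to 16.3).

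The distance to a Runx peak was not free of the rule, since a bound closing region can make a region clustered, and is given as a description. The nearest Runx peak of any list lay a median of 14.2 kb from the clustered regions, and 118 of them were within 1 kb of one. In clusters with a Runx-bound closing region this median was 5.04 kb, and in clusters without it was 32.7 kb, farther than the 26.8 kb of the isolated regions. A Runx1 peak of control cells lay within 5 kb of 11.6% of clustered and 3.94% of isolated regions, and any Runx peak within 50 kb of 77.2% and 69.1%. Of the 633 Runx-bound closing regions inside these clusters 305 (48.2%) had a Runx1 peak, against 43.5% of other bound closing regions. Those Runx1 peaks were of ordinary height, with a median fold enrichment of 5.15 against 5.16 in the other bound closing regions.

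Genes were assigned to each region by their regulatory domains, a basal domain of 5 kb upstream and 1 kb downstream of the start extended to the neighbouring domain by up to 1000 kb, so that 2024 of the 2264 regions had 2 or more genes. The regions reached 1837 protein-coding genes, of which 1705 were found in the expression table and 1194 passed the filter of at least 1 TPM in 3 of 6 libraries for Runx1KO against control. Calls required a log2 fold change beyond 1 in either direction and a limma adjusted p under 0.05. Of the 1194 genes, 201 (16.8%) were lower in Runx1KO cells and 53 (4.44%) higher. Over all 13067 genes tested 5.1% were called lower and 7.91% higher. The median log2 fold change was −0.19 for the assigned genes and −0.06 for all genes. Without the filter on low values 203 of 1513 assigned genes (13.4%) were lower, against 3.71% of all genes. Among genes with no closing region in their domain, 163 of 7518 (2.17%) were lower and 649 (8.63%) higher. In bulk RNA a lower level from fewer cells of a type and from less RNA per cell cannot be told apart.

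The share of lower genes was higher where a gene had more clustered regions. It was 41 of 344 (11.9%) with 1 region, 73 of 502 (14.5%) with 2, 33 of 169 (19.5%) with 3, 32 of 118 (27.1%) with 4 or 5, and 22 of 61 (36.1%) with 6 or more, an order that was not tested. The share of higher genes stayed between 3.39% and 6.56%. These shares by number of regions were not repeated without the filter on low values. With a clustered region within 20 kb of the start, 88 of 358 genes (24.6%) were lower. Genes whose domain held no Runx-bound closing region were lower in 57 of 387 cases (14.7%), and those with one in 144 of 807 (17.8%). Genes with more clustered regions also had more closing regions of every kind, so genes were compared at equal totals. With 1 closing region in the domain, 5 of 29 genes (17.2%) were lower where it was clustered and 126 of 1974 (6.38%) where it was not. With 2 closing regions 10.9% were lower both with and without a clustered region among them. With 3 it was 28 of 225 (12.4%) with and 19 of 226 (8.41%) without. With 4 or 5 it was 37 of 300 (12.3%) with and 26 of 161 (16.1%) without, and with 6 to 9 it was 69 of 277 (24.9%) with and 6 of 45 (13.3%) without. With 10 or more it was 34 of 106 (32.1%) with and 0 of 4 without. The share was thus higher with a clustered region at totals of 1, 3, 6 to 9 and 10 or more, lower at 4 or 5 and nearly equal at 2, and none of these differences was tested. Genes with 2 or more clustered and no other closing regions were lower in 23 of 179 cases (12.8%). Those with 2 or more isolated and no other closing regions were lower in 42 of 403 (10.4%), a difference also not tested. Seen from the regions, 558 of 2264 (24.6%) had a lower gene among their assigned genes, as had 16.0% of the isolated, 19.2% of the Runx-bound closing and 8.54% of all ATAC-seq regions. A higher gene was assigned to 119 (5.26%), against 5.93%, 6.32% and 10.1%. Neighbouring regions share genes, so these shares were not tested.

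In ZebDKO cells, which were compared with the same control libraries, 150 of 1200 assigned genes (12.5%) were lower and 84 (7.00%) higher, where 7.27% and 7.48% of all genes tested were called. The share of lower genes ran from 8.05% with 1 clustered region through 11.0%, 16.3% and 20.3% to 25.4% with 6 or more. This order was not tested, and genes were not compared at equal totals of closing regions in ZebDKO cells. The median log2 fold change of the assigned genes was −0.22, and that of all genes −0.18. Quantile normalization raised the median of all genes by 0.10, and 133 assigned genes (11.1%) were then lower and 96 (8.00%) higher, against 5.97% and 7.98% of all genes. ZebDKO cells had no ATAC-seq, so whether these regions close there was not measured.

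**Figure D4:**
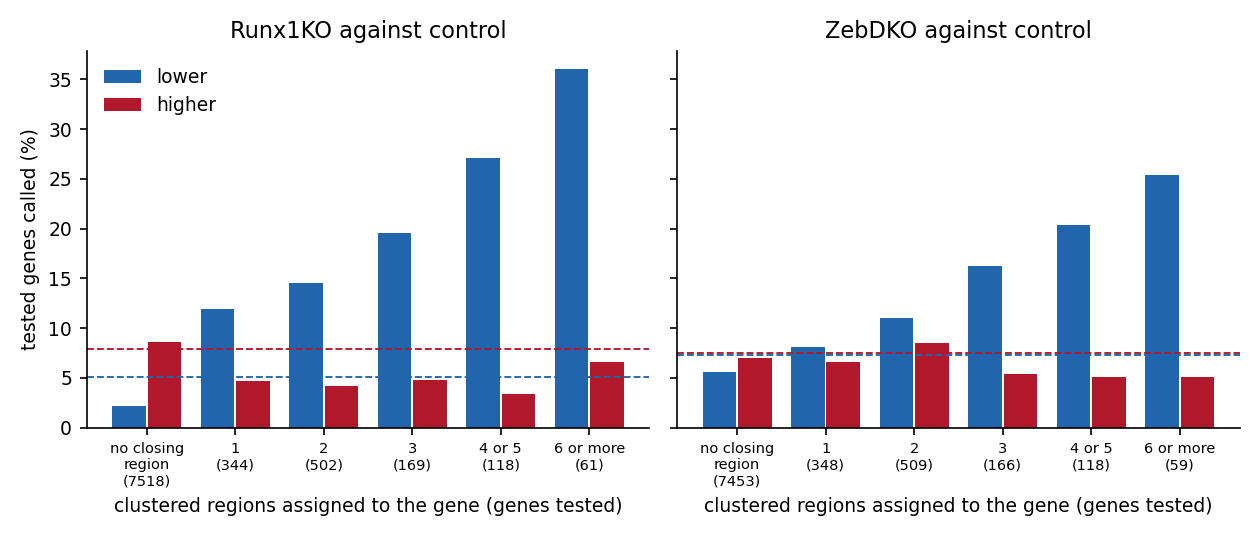
Percent of tested genes called lower or higher (y axis) by the number of clustered closing regions in the gene's domain (x axis, with genes that have no closing region at the left), for Runx1KO and ZebDKO cells against control; dashed lines are the shares over all genes tested. In Runx1KO cells the lower share was 11.9% with 1 region and 36.1% with 6 or more, and the line for all genes lies at 5.1%.

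The lower genes with the most clustered regions included several that encode secreted or matrix proteins. Bmper had 13 regions in 6 clusters and no Runx1-bound closing region in its domain, and its level was 7.4, 6.1 and 6.5 TPM in control cells and 0 TPM in all 3 Runx1KO libraries (limma adjusted p = 2.2e-07). Sulf2, an extracellular sulfatase that edits heparan sulfate, had 10 regions and went from 53.5, 53.4 and 51.9 TPM to 0.4, 0.3 and 0.4 TPM, a log2 fold change of −5.30 (SE 0.053, adjusted p = 2.7e-09). Igfbp2, an insulin-like growth factor binding protein, had 8 regions and no Runx-bound or isolated closing region in its domain. Within 500 kb of its start lay 3 closing regions with a Runx2 peak only and 3 isolated ones. Its levels were 413, 409.7 and 414.6 TPM in control and 16.2, 17 and 15.9 TPM in Runx1KO cells (log2 fold change −4.57, SE 0.032, adjusted p = 1.1e-09). Tnc, with 7 regions in the longest cluster, fell from 89.4, 80.8 and 89.8 TPM to 1.3, 1.1 and 1 TPM (log2 fold change −5.36, SE 0.070, adjusted p = 7.1e-09). Every control library stood above every Runx1KO library for these genes, which were chosen as called lower. Stc2, a secreted glycoprotein hormone, with 6 regions, stood at 9.1, 10.4 and 10.4 TPM in control and 0.9, 0.5 and 0.2 TPM in Runx1KO cells.

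Among the factors that act in the nucleus, Osr1 had 9 clustered, 10 isolated and 7 Runx-bound closing regions. It was at 70.9, 64.1 and 64.3 TPM in control, 0.3, 0.5 and 0.4 TPM in Runx1KO and 18.7, 18.9 and 17.1 TPM in ZebDKO cells, with log2 fold changes of −5.59 (SE 0.072) and −1.81 (SE 0.058). Gli2, a transcription factor of the hedgehog pathway, with 7 clustered regions, was at 10, 9.2 and 9.6 TPM in control and at 0.1 TPM in each Runx1KO library (log2 fold change −3.27, adjusted p = 4.0e-08). Hlf, a basic leucine zipper factor, with 6 regions, was at 9.4, 9.7 and 9.7 TPM against 1.2, 1.1 and 1 TPM. All 3 were also called lower in ZebDKO cells, where Gli2 stood at 3.5, 3.3 and 3.1 TPM and Hlf at 1.9, 2.2 and 2.3 TPM.

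Receptors and transporters were among the others. Tgfbr3, the TGF-beta co-receptor betaglycan, with 6 regions in 4 clusters, was at 31.6, 29.1 and 30 TPM in control, 9.8, 9 and 11.5 TPM in Runx1KO and 3.8, 4 and 4.3 TPM in ZebDKO cells. Slc1a3, a glutamate transporter, fell from 428.2, 429.5 and 443.3 TPM to 95.8, 97.3 and 98.5 TPM (log2 fold change −2.15, SE 0.025, adjusted p = 4.9e-09). Lifr, the receptor of leukaemia inhibitory factor, was at 3.7, 3.4 and 3.8 TPM in control and at 0.3 TPM in each Runx1KO library. The interleukin 1 receptor Il1r1 had log2 fold change −1.88 (SE 0.11), and the calcium pump Atp2b4, with 10 regions, −1.18 (SE 0.089). Pard3b, a polarity protein with 7 regions, was listed at 0 TPM in all 3 Runx1KO libraries after 5.2, 4 and 4.7 TPM in control, and was called lower (adjusted p = 9.7e-07). Bmper, Sulf2, Osr1, Gli2, Stc2, Lifr, Atp2b4, Pard3b, St8sia2 and Sytl2 were below 1 TPM in every Runx1KO library. They passed the filter through the control libraries alone and were chosen as called lower, so their p-values are a description. The remaining genes were the sialyltransferase St8sia2 (log2 fold change −3.13), the vesicle protein Sytl2 (−2.58), the pro-apoptotic Bcl2l11 (−1.77), the stress-responsive Ndrg1 (−1.44) and the focal adhesion protein Tns1 (−1.30).

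In ZebDKO cells these 19 genes did not move alike. Called lower there were Bmper, Sulf2, Osr1, Igfbp2, Gli2, St8sia2, Sytl2, Stc2, Hlf, Slc1a3, Lifr and Tgfbr3, with Sytl2 nearest the limit (log2 fold change −1.02, and −0.88 after quantile normalization). Ndrg1 was called higher (log2 fold change 1.70, SE 0.030). Tnc, at 97.6, 106 and 97 TPM (log2 fold change 0.21), was not called and lay above its control libraries. Atp2b4 (0.74), Bcl2l11 (0.40), Tns1 (−0.31), Il1r1 (−0.36) and Pard3b (−0.91) were not called either, although Pard3b was called lower with a pseudocount of 0.5 (−1.03) or 0.1 (−1.17).

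**Figure D5:**
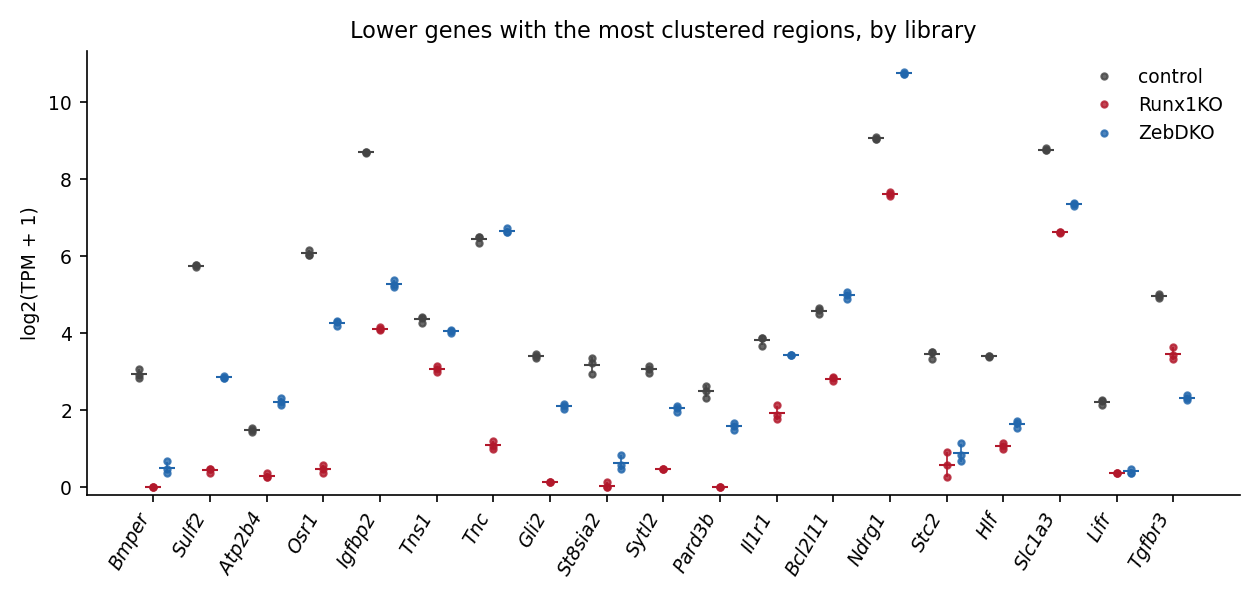
Level of 19 of the 20 lower genes with the most clustered closing regions (x axis, genes; y axis, log2(TPM+1)) in each library of control, Runx1KO and ZebDKO cells; points are libraries and bars the mean ± SD (n = 3). In Runx1KO cells Osr1 and Sulf2 lay below 1 on this axis, and all 3 points of Tnc in ZebDKO cells (97 to 106 TPM) lay above its control points (80.8 to 89.8 TPM).

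Some genes with clustered closing regions in their domain rose in Runx1KO cells. Slc44a3, a protein of the choline transporter-like family, had 9 regions in 5 clusters and went from 0, 0.1 and 0 TPM to 15.2, 14.5 and 15.2 TPM (log2 fold change 3.95, SE 0.071, adjusted p = 2.2e-08). Mctp2, with 6 regions, went from 0.3, 0.4 and 0.3 TPM to 24.6, 26.6 and 25.4 TPM, and stood at 13.6, 13.7 and 12.6 TPM in ZebDKO cells. Plcg2, a phospholipase C, with 6 regions, went from 13.7, 13.1 and 12.5 TPM to 47.1, 43.8 and 42 TPM. Tmem252 (log2 fold change 4.00), the channel subunit Cngb1 (2.04), the kinesin Kifc3 (1.54), the growth factor Fgf1 (1.10) and the ubiquitin ligase Lnx1 (1.09) were called as well, with 4 to 6 regions. Slc44a3, Mctp2 and Cngb1 were below 1 TPM in every control library and passed the filter through the Runx1KO libraries alone. Lnx1 and Fgf1 lay close to the limit: Lnx1 had 0.93 after quantile normalization, and Fgf1 0.9985 in the deposited table of 6 libraries.

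Other genes with many clustered regions were not called in Runx1KO cells. The 6 with the most were Setbp1 (10 regions, log2 fold change −0.94), Phactr1 (9, −0.40), the planar polarity gene Vangl1 (9, −0.31), Zfp608 (9, −0.28), the arginyltransferase Ate1 (9, −0.19) and the transporter Slco3a1 (9, 0.20). Setbp1, which encodes a SET-binding protein, was at 10.9, 9.3 and 12.2 TPM in control, 5, 5 and 5.3 TPM in Runx1KO and 2.1, 2.1 and 1.5 TPM in ZebDKO cells. It was called lower in Runx1KO cells without control replicate 2 (−1.04), with a pseudocount of 0.5 or 0.1 (−1.01 and −1.06) and after quantile normalization (−1.01), and was called lower in ZebDKO cells (log2 fold change −2.02).

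The genes nearest the 10 largest clusters also differed. Tnc and Elfn1, whose start lies inside its cluster, fell strongly, with Elfn1, a synaptic membrane protein, at 78.6, 67.8 and 76.8 TPM in control and 1.8, 2.3 and 2.1 TPM in Runx1KO cells (log2 fold change −4.62, SE 0.081, adjusted p = 2.1e-08). Zcchc24, a zinc finger protein, was at 67.4, 62.7 and 70.5 TPM against 32.9, 30.9 and 33.5 TPM, a log2 fold change of −1.02 that missed the limit without control replicate 3 (−0.98) or Runx1KO replicate 2 (−0.99). The ecto-5'-nucleotidase Nt5e was at 15.2, 13.2 and 15.9 TPM against 9.6, 9.8 and 10.4 TPM (−0.52, not called). Rhou was at 107.6, 108.6 and 114.4 TPM against 167.5, 174.9 and 170.9 TPM (0.63, not called), and Klf4, a Kruppel-like factor, had 76, 80.3 and 72 TPM against 77.6, 82.6 and 71.3 TPM (0.02, SE 0.062). Galnt15 had 2.1, 1 and 1 TPM against 0.4, 0 and 0.3 TPM (−0.92, not called). It was called lower with a pseudocount of 0.5 (−1.34) or 0.1 (−2.35), after quantile normalization (−1.07), without control replicate 2 or 3 (both −1.03) and without Runx1KO replicate 1 (−1.02). Sema5b, whose introns hold its cluster, was at or below 0.3 TPM in all 9 libraries. Cga and Bank1, with starts 97.3 and 105.8 kb from their clusters, were listed at 0 TPM in all 9. The Cga cluster lies in introns of Mob3b, whose level is not given here.

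The genes with their start in the 8 longest runs that passed the filter were Bmper, Osr1, Ntrk3, Pard3b, Epha7, Plcb1 and Plcb4, and were called lower in Runx1KO cells, as 5.1% of all genes were. All but Epha7 were at or below 0.5 TPM in Runx1KO cells, so that they passed the filter through the control libraries alone, and the runs were chosen after their values were seen. Their values are given as a description. Ntrk3, the neurotrophin 3 receptor, was at 16.9, 18.5 and 19.3 TPM in control and 0.1, 0 and 0 TPM in Runx1KO cells (log2 fold change −4.22, SE 0.078, adjusted p = 2.5e-08). The phospholipase C genes Plcb1 and Plcb4, in the same run, were at 8.7, 7.8 and 8.5 TPM and at 3.8, 3.8 and 4 TPM in control. In Runx1KO cells Plcb1 was listed at 0 TPM in all 3 libraries and Plcb4 at 0.1, 0 and 0 TPM, and both were called lower. Epha7, an Eph receptor, was at 4.8, 5 and 4.9 TPM against 1.3, 1.3 and 1.4 TPM (log2 fold change −1.34). In ZebDKO cells Ntrk3 (0.1, 0.1 and 0 TPM) and Plcb1 (1.1, 1.3 and 1.4 TPM) were called lower, while Plcb4 was at 3.5, 4 and 3.7 TPM (−0.04, not called).

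Gene lists were counted over all tested members and over those with a clustered region. A member could pass the filter through the libraries of 1 line alone, so the list counts are a description. For reference, 5.1% of all genes and 16.8% of the assigned genes were lower in Runx1KO cells, and 7.27% and 12.5% in ZebDKO cells. Of 22 tested matrix and cell surface genes 11 were lower in Runx1KO cells and 2, Thbs1 and Thbs2, higher. Of the 13 with a clustered region 10 were tested, and 7 were lower in Runx1KO cells (Col5a1, Col6a1, Col6a2, Col12a1, Fn1, Tnc and Ncam1) and 1, Thbs1, higher, with a median log2 fold change of −2.17 where all genes had −0.06. Col6a2, a collagen VI chain, was at 113.7, 108.6 and 113.7 TPM in control and 2.9, 2.8 and 2.7 TPM in Runx1KO cells, and fibronectin Fn1 at 53.7, 48.8 and 55.4 TPM against 18, 18.3 and 17.6 TPM. In ZebDKO cells 2 of these 10, Col6a1 and Col6a2, were lower. Of 17 tested mesenchymal transcription factors 5 were lower in Runx1KO cells and none higher. Of the 14 with a clustered region 12 were tested and 4 were lower in Runx1KO cells: Zeb2, Twist2, Lef1 and Nfix. Zeb2, a repressor of epithelial genes, with 3 clustered regions, was at 5.5, 4.9 and 5.2 TPM against 0.2 TPM in each Runx1KO library (log2 fold change −2.37, SE 0.076), and Lef1, a Wnt pathway factor with 4 regions, at 9.4, 8.4 and 9.2 TPM against 0.1, 0.1 and 0.2 TPM. In ZebDKO cells Zeb2, Prrx2 and Tshz1 were lower. The ZebDKO value of Zeb2 is a description, since the line carries its deletion.

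Of 22 tested TGF-beta and BMP pathway genes 7 were lower in Runx1KO cells and 2, Inhba and Bmp7, higher. Of the 9 with a clustered region 8 were tested, with the ligands Tgfb2 and Inhbb, the co-receptor Tgfbr3 and the regulator Bmper lower in Runx1KO cells and none higher. Inhbb, an activin subunit, was at 48.9, 45.6 and 45.4 TPM in control and 0.2, 0.1 and 0.1 TPM in Runx1KO cells. The receptors Tgfbr2 (log2 fold change 0.27) and Acvr2a (0.17) and the signal transducer Smad3 (−0.25) were not called. In ZebDKO cells Tgfbr3, Inhbb and Bmper were lower. Of 15 tested axon guidance and Eph genes 6 were lower in Runx1KO cells and 1, Sema3c, higher. Of the 10 with a clustered region 8 were tested, and Sema5a, Epha7, Efnb2 and Ntn1 were lower in Runx1KO cells, with Sema5a at 36.6, 32.6 and 34.7 TPM against 0.4, 0.4 and 0.5 TPM. Sema5a, Nrp1 and Efnb2 were lower in ZebDKO cells. Of 16 tested nephron progenitor genes 4 were lower in Runx1KO cells and 1, Osr2, higher. Of the 8 with a clustered region 5 were tested, and Osr1 and Gdnf were lower in Runx1KO cells. Gdnf, the growth factor that draws the ureteric bud, was at 13.1, 11.4 and 13.6 TPM in control, 0.1 TPM in each Runx1KO library and 38.6, 41.4 and 39.4 TPM in ZebDKO cells, where it was called higher. Wnt4 and Tbx18 were called lower in ZebDKO cells (log2 fold changes −2.63 and −1.07) and not called in Runx1KO cells (0.65 and −0.80). Of 18 tested actin and contractile genes 2 were lower and 1 higher in Runx1KO cells, and neither of those with a clustered region, Tmsb10 and Palld, was called in either line.

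Epithelial markers moved with these results, and their part in them was not tested. None of the 20 epithelial genes had a clustered region in its domain. Their summed level was 16.9 to 19.9 TPM in control, 2698.3 to 2780.6 TPM in Runx1KO and 1304.2 to 1369.1 TPM in ZebDKO cells. Higher were 10 of 12 tested genes in Runx1KO and 8 of 11 in ZebDKO cells, where 7.91% and 7.48% of all genes were. With so low a sum in control, markers could pass the filter through the knockout libraries alone, so these counts are a description. The defining markers Cdh1, at or below 0.3 TPM, and Epcam, at 0 TPM, stayed at or near 0 in Runx1KO cells. In ZebDKO cells Cdh1 was at 0.4 to 0.6 TPM and Epcam at 28.3, 26.7 and 28.8 TPM, which was called higher.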

How the data were processed

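The deposited files hold TPM tables of 9 RNA-seq libraries, 3 lists of ATAC-seq regions and 3 lists of ChIP-seq peaks, on mm9. Per the paper, the authors trimmed reads with Trim Galore, aligned them with STAR, removed duplicates and used featureCounts 1.6.2 to count reads over RefSeq genes. The authors deposited TPM, scaled for gene length and library. The authors' DESeq2 1.26.0 results on counts were not used. ATAC-seq regions were MACS2 peaks that recurred in at least 2 replicates of the 3. The deposited lists split at a 2-fold change in the authors' own fold change column, a limit the methods do not state for these regions. The authors' log2 fold change and an unlabelled −log10 p-value stand in the deposited lists and were not used in any comparison. ChIP-seq peaks were called by the authors on pooled replicates, and peaks of the Runx1 antibody in Runx1KO cells were removed. The fold ratio over local background and the −log10 q-value of each peak are the authors' deposited values. The methods give a q limit of 0.01, while the deposited q-values reach 0.0494. The lists hold no value per replicate, so region classes were compared without p-values. Read depth is unknown, since TPM and peak lists keep no reads. From 12541 to 12697 genes were at 1 TPM or more in each library.

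The member regions and gene lists were chosen with earlier results of these data known. Motifs were counted on both strands in the central 300 bp with pysam 0.24.0 from the mm9 sequence, and places and transcription starts come from GENCODE vM1 models of the same build, with the printed sequences read from that genome. Each protein-coding gene had 1 start, at the outer end of its model, so its other promoters and the starts of noncoding genes were not counted. Differences of shares have 95% intervals with the cluster as the unit of a sandwich standard error. Against stable regions the unit was a chain of ATAC-seq regions of all 3 lists, with gaps of up to 12.5 kb. The intervals of differences and the Wilson intervals cover counting error only. Expression was fitted with limma 3.58.1 in R 4.3.3 on log2(TPM+1), letting the prior variance follow the mean level, for genes at 1 TPM or more in 3 of 6 libraries, with Benjamini-Hochberg adjustment. A fold change on this scale understates that of genes of low TPM. Calls required a log2 fold change beyond 1 in either direction, with adjusted p under 0.05. Genes named were those starting in or nearest to the 10 clusters with the most member regions, the 20 lower, 8 higher and 6 uncalled genes with the most regions, ties by fold change, and genes of fixed lists; 1 of the 20 lower genes is not reported here. Genes in the longest runs, the tie-break for the tenth cluster, the comparison with stable regions, the comparison at equal numbers of closing regions and the Zeb shares without Ctcf letters were chosen after their values were seen. The fits and intervals were tested on simulated data. Alternatives were windows of 5 and 25 kb, peaks padded by 500 bp, peaks at q up to 0.01, other motif windows and assignment rules, pseudocounts of 0.1 and 0.5, other filters, quantile normalization, no trend, a fit over 9 libraries, the table of 6 libraries, the replicate block and each library left out. Python 3.11.15, pandas 2.3.3, numpy 2.4.6, scipy 1.17.1 and matplotlib 3.10.9 were used.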

Additional observations from a re-analysis of the deposited data

How the results depend on the processing

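The number of clustered regions was 1246 with a window of 5 kb, 3163 with 25 kb, 2223 with Runx peaks padded by 500 bp, 2278 with peaks at q up to 0.01 and 1810 when the neighbour also had to lack a Runx peak. Assigned genes depended on the rule. With the nearest start within 100 kb 25 genes were higher in Runx1KO cells, and in ZebDKO cells 99 were lower and 51 higher. With a start within 20 kb, 88 of 358 (24.6%) were lower and 9 (2.51%) higher in Runx1KO cells. In ZebDKO cells 64 of 362 (17.7%) were lower and 29 (8.01%) higher. Over all genes tested 5.1% were lower and 7.91% higher in Runx1KO cells, and 7.27% and 7.48% in ZebDKO cells. Fewer genes are assigned under both rules. Leaving out 1 library at a time gave 198 to 204 lower and 52 to 56 higher genes in Runx1KO cells, and 147 to 163 lower and 79 to 87 higher genes in ZebDKO cells.

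Over whole regions, which are wider when Runx-bound, the difference of clustered minus Runx-bound shares was −6.20 percentage points for Zeb letters and −4.24 for E-box letters, both reversed, and −1.75 for Ets, −1.22 for Fox, −1.32 for homeobox, −1.37 for Tcf/Lef, −0.42 for Grhl and −1.86 for Ctcf letters. With a window of 25 kb it was −0.58 for Tcf/Lef letters. Against isolated regions, Ets letters gave −0.48 within 200 bp, Nfi letters −0.072 within 200 bp and −0.011 over whole regions, Grhl letters 0.42 over whole regions, 0.50 with 5 kb and 0.42 with 25 kb, and Ctcf letters 0.57 with 25 kb. The promoter difference was −1.01 and the exon difference −0.53 with 5 kb, and that for a nearby opening region −0.93 within 5 kb and −2.43 within 25 kb. For these the cause was not tested.

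Values of 2 named genes changed sign around 0. With 1 library left out, Klf4 in Runx1KO cells ranged from −0.0311 (without Runx1KO replicate 2) to 0.0737 (without Runx1KO replicate 3), with −0.02 without control replicate 3, and Lnx1 in ZebDKO cells from −0.0018 (without ZebDKO replicate 1) to 0.1039 (without ZebDKO replicate 2). Lnx1 was at −0.0758 there after quantile normalization. Sytl2 in ZebDKO cells also missed the limit without control replicate 3 (−0.97) or ZebDKO replicate 3 (−0.98), as Galnt15 did without control replicate 1 (−0.91). The replicate numbers did not pair the libraries: same-numbered libraries correlated at −0.0532 to 0.0139 for Runx1KO and at −0.0236 to 0.0312 for ZebDKO. With the replicate block 201 and 53 assigned genes were lower and higher in Runx1KO cells and 150 and 84 in ZebDKO cells, the counts of the fit without it. Depth is unknown, so the precision of single TPM values below 1 could not be judged.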

Other observations

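Clustered regions were spread over the chromosomes, from 17.8% of the closing regions on chromosome 10 and 22.3% on chromosome 18 to 30.8% on chromosome 15. The number ran from 49 on the X chromosome to 199 on chromosome 1. Muscle and fat genes, which mesenchymal lines can express, were looked at as another cell state. Of 6 such genes only Cebpa had clustered regions (3 in 1 cluster), at 0.1 TPM in every control and Runx1KO library. Des was the only one tested, at 4.6, 4.4 and 4.3 TPM in control and 1.3, 1.1 and 1.2 TPM in Runx1KO cells (limma log2 fold change −1.31), and had no clustered region.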
